A study of Homo sapiens with 8 samples.

Results

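A set of 1948 cells, 8.52% of the 22857 cells of the HMLE line in which at least 1000 genes were detected, carried almost no mitochondrial transcripts. They were selected on measured mitochondrial UMIs in each of 4 single-cell mRNA libraries as cell barcodes with at least 1000 genes and under 0.5% of their gene UMIs from genes whose symbols start with MT-. A UMI is a tag that marks a captured RNA molecule, so PCR copies are counted once. They are called low-mitochondrial cells here, and were set against 15193 cells of the same libraries with at least 1000 genes and a mitochondrial share of 1 to 3%, called comparison cells. All libraries together held 26247 cell barcodes. Library 1 gave 851 low-mitochondrial cells (10.9% of its cells of at least 1000 genes), library 2 gave 497 (9.34%), library 3 gave 288 (5.29%) and library 4 gave 312 (7.30%). The comparison cells numbered 4917, 3462, 3989 and 2825.

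HMLE is an immortalised human mammary epithelial line that is widely used to study the epithelial-to-mesenchymal transition (EMT). In the study, cultures of HMLE cells were taken through an EMT driven by TGF-β, with or without pyridostatin, a ligand that stabilises G-quadruplex DNA. Cells of 12 samples were each tagged with a short barcoded oligonucleotide (SBO), pooled, and run on a 10x Genomics 5′ kit. The labels do not tie an SBO to TGF-β, pyridostatin or a time point, so both sets of cells are mixtures of all these conditions and no treated and untreated cells were compared. The labels give 12 pooled samples for each library and name no smaller pools. By the most frequent SBO of each cell, SBO01 to SBO06 lay in libraries 1 and 2, almost without exception. SBO07 to SBO12 lay in libraries 3 and 4. A first and a second pool, each run as 2 libraries, are inferred here from these tags alone. On this reading, p-values below reflect technical spread and differences between the pools. They do not show how replicate cultures vary.

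Mitochondrial DNA encodes a small set of respiratory chain subunits, whose transcripts stay inside the mitochondrion. All other mitochondrial proteins are made from nuclear genes and imported. In single-cell data a high mitochondrial share is a common sign of a leaking or dying cell, because cytoplasmic RNA is lost before RNA inside organelles. A very low share is filtered less often, and is known from cell fragments, red blood cells and some terminally differentiated cells. The outermost cells of squamous epithelia, for example, lose their nuclei and mitochondria while they build a cornified envelope of crosslinked proteins.

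The mitochondrial share, which chose the cells, had a median of 0.186% in low-mitochondrial cells and 1.66% in comparison cells, and 137 low-mitochondrial cells had no MT- UMI at all. As a description of that choice, each of the MT- transcripts was lower, to differing degrees. MT-CO2, a subunit of cytochrome c oxidase, averaged 824 ± 141 counts per 1000000 UMIs (CPM) in low-mitochondrial cells and 3810 ± 431 CPM in comparison cells (SD, n = 4 libraries each). MT-ND6, a complex I subunit, averaged 9.52 ± 1.61 CPM in low-mitochondrial cells and 99.0 ± 20.1 CPM in comparison cells. The ratio of comparison to low-mitochondrial cells was smallest for MT-ND3 at 4.08 and largest for MT-ND6 at 10.4. All other levels below are CPM of UMIs from genes other than MT- genes, so that the choice of cells does not enter their denominator.

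Of the cell barcodes, 899 occurred in more than 1 library. They included 182 low-mitochondrial cells, and 28 barcodes were low-mitochondrial in more than 1 library. They were treated as different cells.

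Low-mitochondrial cells were shallower than comparison cells, and more varied. Their median gene UMIs were 12586, 9856, 15742.5 and 24998 in libraries 1 to 4, against 22889, 28113, 30847 and 39306 in comparison cells. The median was lower in each of the 4 libraries, by 1.00 on the log2 scale on average (a ratio of 0.5), with an exact two-sided sign-flip permutation p of 0.13, the smallest that 4 pairs can give. Genes per cell stood at a ratio of 0.649. In low-mitochondrial cells 41.8% (815 cells) held under 10000 UMIs from other than MT- genes, and in comparison cells 2.92% (443 cells). The histograms of depth show a group of low-mitochondrial cells near 10000 UMIs or below, and another as deep as the comparison cells.

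**Figure D1:**
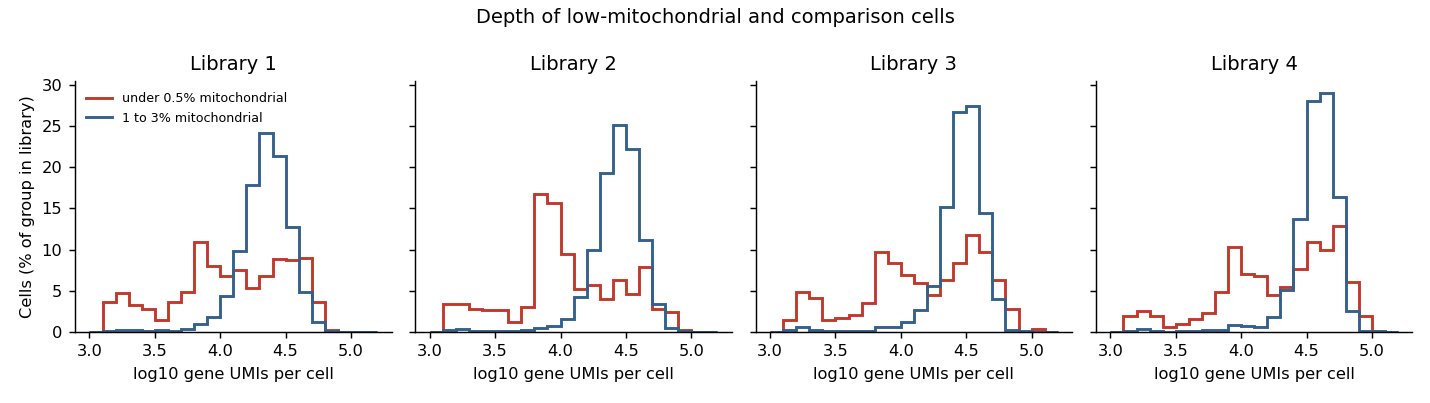
Gene UMIs per cell (x axis, log10) as a percentage of the cells of each group (y axis), in low-mitochondrial cells (red) and comparison cells (blue) of libraries 1 to 4. Low-mitochondrial cells spread over the whole range in every library, and 41.8% of them in all held under 10000 UMIs, against 2.92% of comparison cells.

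The shallow cells were the poorest in mitochondrial RNA. In cells with a share under 0.1% (753 cells) the median was 8371 UMIs, at 0.1 to 0.25% (373 cells) it was 11437, and at 0.25 to 0.5% (822 cells) it was 30300, close to the 34103 of cells at 0.5 to 1%. Cells just inside and just outside the 0.5% limit were alike in depth, with medians of 33675 UMIs at 0.4 to 0.5% (366 cells) and 35105 UMIs at 0.5 to 0.6% (483 cells). They were also alike in MALAT1, at 1732 ± 715 CPM inside and 1559 ± 545 CPM outside the limit (SD, n = 4 libraries). Some genes reported below as higher did not change at the limit either. CDKN1A averaged 324.9 CPM inside and 345.1 CPM outside, against 173.3 CPM in comparison cells. C15orf48 averaged 499.6 CPM inside and 534.1 CPM outside, against 207.8 CPM in comparison cells. Means of CRCT1, S100A7, S100A8 and SPRR1B were higher outside. Those of IGFL1, SNHG12, SERPINB2 and SPRR2A were higher inside.

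Sample tags per cell were scarcer in low-mitochondrial cells. The median number of SBO UMIs per cell was 591, 179, 202 and 219.5 in libraries 1 to 4, against 643, 686, 260 and 283 in comparison cells, lower in 4 of 4 libraries (exact sign-flip permutation p = 0.13). The mean log2 ratio was -0.70, and without library 2, where the gap was widest, it was -0.28. Set against depth the direction turned: SBO UMIs per 1000 gene UMIs were 1.6 times those of comparison cells, higher in 3 of 4 libraries (exact p = 0.25). By HTODemux, a method that calls a tag present above a background fitted in each library, 44.2 ± 8.1% of low-mitochondrial cells had no SBO, against 23.9 ± 4.8% of comparison cells (SD, n = 4 libraries, higher in 4 of 4, exact p = 0.13). Low-mitochondrial cells with no SBO had a median of 7952.5 UMIs, those with 1 SBO 23554 and those with several 23821. Several SBOs, the mark of a doublet of cells from different samples, were called in 44.0% of low-mitochondrial cells of library 1, against 25.5% of its comparison cells. In libraries 2 to 4 they were called in 12.7 to 20.8% of low-mitochondrial cells, against 20.8 to 24.8% of comparison cells.

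Cells with 1 SBO show how the low-mitochondrial state was spread over the 12 samples. The share of low-mitochondrial cells was 1.06% in SBO12 (95% exact binomial interval 0.565 to 1.81%), 1.23% in SBO05 and 2.27% in SBO01, and lay between 5.07% (SBO09) and 14.2% (SBO02, interval 11.4 to 17.3%) in the other 9. By top SBO, another way to assign cells, SBO05 stood at 3.09%. The loads of a pool differed: SBO01 had 3.04% in library 1 and 1.31% in library 2, SBO10 3.37% in library 3 and 8.60% in library 4, and SBO11 3.75% in library 3 and 7.33% in library 4. SBO02, SBO03, SBO04 and SBO06 each exceeded 9%, in both libraries together. These shares rest on 587 of the 1948 low-mitochondrial cells, since 814 had no SBO and 547 had several, and the intervals cover counting error only.

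Nuclear RNA was lower, not higher, in low-mitochondrial cells. MALAT1, an abundant long noncoding RNA that stays in nuclear speckles, stood at 1444, 1690, 1139 and 794.5 CPM in low-mitochondrial cells of libraries 1 to 4, against 2519, 2481, 1911 and 1477 CPM in comparison cells. It was lower within every library, although the groups overlap across libraries. Its log2 fold change was -0.73 ± 0.07 (SE), with an adjusted p of 1.24e-06 by edgeR (quasi-likelihood, blocked by library), the test used for all fold changes here. NEAT1, the RNA scaffold of paraspeckles, fell by 0.41 on the log2 scale (adjusted p = 0.000673) and KCNQ1OT1, an imprinted antisense RNA, by 0.81 (adjusted p = 3.2e-06).

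Of the 22 genes tested from a list of 23 nuclear-retained transcripts, 9 fell, 1 rose and 12 did not pass, with a median log2 fold change of -0.15, beside -0.01 over all 16589 genes tested. Over all genes 30.1% passed the test, 13.7% higher and 16.4% lower in low-mitochondrial cells. These shares stand beside each count of list members over all cells below. Within SBO populations, both groups were limited to cells with 1 SBO and compared inside each SBO population of each library. Populations with under 10 cells in either group were left out, SBO12 among them. In this setting 7 of 20 fell and 3 rose (median -0.04), beside 13% lower and 15.8% higher of 10314 genes tested. It is also a deeper set: low-mitochondrial cells with 1 SBO had a median of 23554 UMIs, against 7952.5 with no SBO. Samples were loaded in both libraries of their pool, so the 22 pairs are not separate cultures. Over all cells the 1 member that rose was PVT1, a noncoding RNA beside MYC. It stood at 27.0 ± 2.4 CPM in low-mitochondrial cells and 18.7 ± 0.7 CPM in comparison cells. The list as a whole took 0.280 ± 0.043% of UMIs in low-mitochondrial cells and 0.385 ± 0.059% in comparison cells (SD, n = 4, lower in 4 of 4, exact p = 0.13). Without MALAT1 and NEAT1 these shares were 0.141 ± 0.006% and 0.158 ± 0.008%. SRRM2, a speckle protein whose mRNA lies partly in the nucleus, did not pass, at 287 ± 9 CPM in low-mitochondrial cells and 288 ± 5 CPM in comparison cells.

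Averaged over libraries, the levels ran in order along the mitochondrial share. MALAT1 averaged 561 CPM in cells under 0.1%, 1284 at 0.1 to 0.25%, 1525 at 0.25 to 0.5%, 2097 in the comparison cells and 23240 in cells above 15%. The mRNAs of cytosolic ribosomal proteins took 22.0% of UMIs under 0.1%, 19.4% in comparison cells and 7.01% above 15%. Depth over all libraries had its highest median between 0.5 and 1% and was lower toward both ends, at 8371 UMIs under 0.1% and 3676.5 UMIs above 15%. Both ends were shallow, and in MALAT1 and the ribosomal share they lay on opposite sides of the comparison cells.

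**Figure D2:**
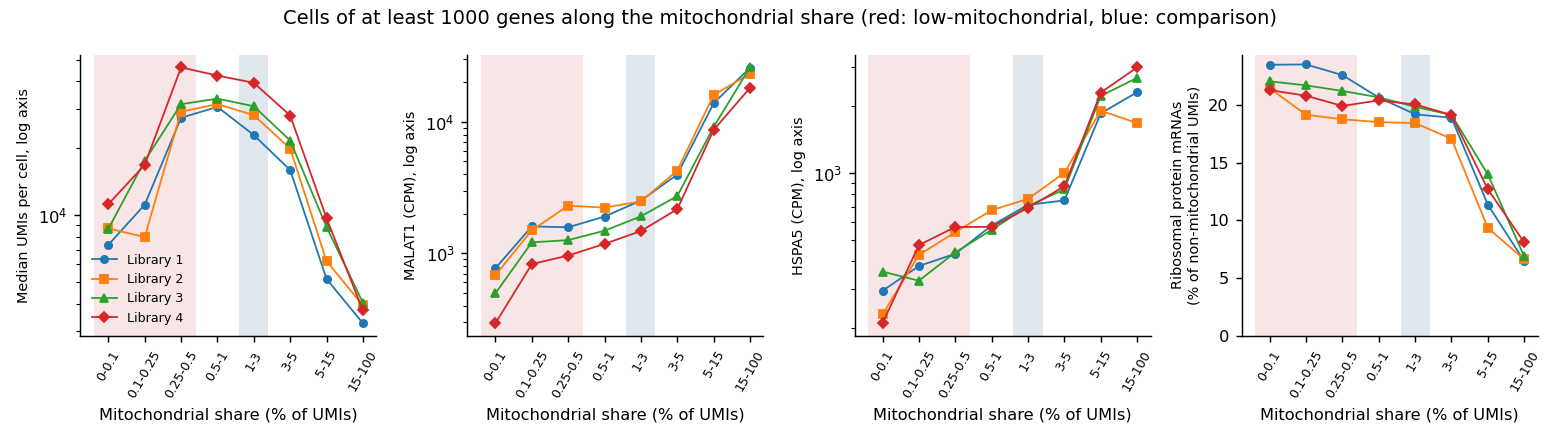
Median gene UMIs per cell, MALAT1 and HSPA5 (CPM, log axes) and the summed share of cytosolic ribosomal protein mRNAs (y axes) in cells of at least 1000 genes, by mitochondrial share (x axis), with 1 line for each library. The red band marks low-mitochondrial cells and the blue band comparison cells. In every library MALAT1 is lowest under 0.1% and highest above 15%. Depth peaks at 0.5 to 1% in libraries 1 to 3 and at 0.25 to 0.5%, within the red band, in library 4.

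Genes of the secretory pathway were mostly lower. Messenger RNAs for secreted and membrane proteins are translated at the endoplasmic reticulum (ER), whose chaperones fold them and whose oligosaccharyltransferase adds sugars. Of 34 genes in a list of this pathway, 22 fell, 2 rose and 10 did not pass, with a median log2 fold change of -0.26. In cells under 10000 UMIs of both groups the same list gave 22 lower, 0 higher and a median of -0.81. Over all genes tested there, 9.5% were lower and 1.32% higher.

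HSP90B1, the ER member of the HSP90 family, stood at 507, 506, 556 and 560 CPM in low-mitochondrial cells, against 790, 797, 790 and 741 CPM in comparison cells (log2 fold change -0.53 ± 0.06, adjusted p = 7.54e-06). The groups did not overlap, as was so for 11.2% of all genes in this direction and 9.63% in the other. PDIA4, a protein disulphide isomerase, fell by 0.61 on the log2 scale. STT3A, the catalytic subunit of an oligosaccharyltransferase, fell by 0.73, and the lectin chaperone CALR by 0.49. The 2 members that rose were SRP14, part of the signal recognition particle, and SEC61B, a small translocon subunit, with log2 fold changes of 0.27 and 0.20. SEC61B lost its call within SBO populations (0.08, adjusted p = 0.214).

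HSPA5, the main ER chaperone of the HSP70 family (BiP), was counted in the list of immediate early and heat shock genes below. It stood at 400, 429, 405 and 475 CPM in low-mitochondrial cells of libraries 1 to 4, against 717, 763, 707 and 695 CPM in comparison cells. The groups did not overlap, and the log2 fold change was -0.73 ± 0.06 (adjusted p = 3.59e-07). In cells under 10000 UMIs it averaged 313 ± 70 CPM in low-mitochondrial cells and 687 ± 72 CPM in comparison cells.

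Several of these chaperone genes carry an ER stress response element, the sequence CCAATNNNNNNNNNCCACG, close to their start. It was searched on both strands of the RefSeq promoter sequences (GRCh38.p14, 250 bases before to 50 after each start), where it is held by 27 of 35116 promoters (0.0769%). The promoters of HSPA5, HSP90B1 and PDIA6 hold it and are shown because these genes fell together. Each line gives the 200 bases that end just before the start, 5′ to 3′ on the gene's strand, with the fixed bases of the element in capitals (chr9:125241344-125241543 minus strand, chr12:103930210-103930409 plus strand and chr2:10812786-10812985 minus strand).
HSPA5: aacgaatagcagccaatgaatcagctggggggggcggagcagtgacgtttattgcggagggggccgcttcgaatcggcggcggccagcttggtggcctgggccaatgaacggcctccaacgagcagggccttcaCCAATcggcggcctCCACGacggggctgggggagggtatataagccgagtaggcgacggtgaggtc
HSP90B1: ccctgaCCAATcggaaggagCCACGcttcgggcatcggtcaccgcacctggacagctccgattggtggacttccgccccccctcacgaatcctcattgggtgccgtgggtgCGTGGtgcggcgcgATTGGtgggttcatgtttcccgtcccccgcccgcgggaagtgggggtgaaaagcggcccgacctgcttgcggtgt
PDIA6: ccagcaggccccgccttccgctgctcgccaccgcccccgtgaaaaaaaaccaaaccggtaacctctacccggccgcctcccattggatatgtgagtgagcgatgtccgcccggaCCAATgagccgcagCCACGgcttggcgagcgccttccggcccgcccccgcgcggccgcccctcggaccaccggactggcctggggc
The HSP90B1 stretch holds 2 matches, 1 on each strand, and the others 1 each. PDIA6, another disulphide isomerase, fell by 0.46 on the log2 scale (adjusted p = 4e-05). Of 27 promoters found for the secretory list, 3 held the element (11.1%), those of HSP90B1, PDIA6 and the lectin chaperone CANX, which fell by 0.40 on the log2 scale. HSPA5 was the 1 of 23 promoters of immediate early and heat shock genes that held it (4.35%). Taking 1 promoter per gene, 6 of 2179 genes that fell held the element (0.275%), against 14 of 11670 genes tested (0.12%) and 1 of 1620 genes that rose (0.0617%). The 6 include HSPA5, HSP90B1, PDIA6 and CANX, so these counts repeat the genes shown above and are a description only. A match describes the sequence and does not show that the element was used.

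Of 27 immediate early and heat shock genes, HSPA5 among them, 16 fell and 3 rose (median -0.22). HSPA8, the constitutive cytosolic HSP70, averaged 1536 ± 196 CPM in low-mitochondrial cells and 2255 ± 58 CPM in comparison cells, and HSP90AA1, the inducible cytosolic HSP90, 2357 ± 403 CPM in low-mitochondrial cells and 3213 ± 337 CPM in comparison cells. The 3 that rose were ATF3, DDIT3 and PPP1R15A, all known targets of the integrated stress response. ATF3 averaged 59.5 ± 18.4 CPM in low-mitochondrial cells and 28.3 ± 1.5 CPM in comparison cells (log2 fold change 1.05, adjusted p = 2.4e-06), and DDIT3 rose by 0.78. CHAC1, a glutathione-degrading enzyme of the same response, averaged 49.3 ± 14 CPM in low-mitochondrial cells and 21.5 ± 1.4 CPM in comparison cells (log2 fold change 1.19, adjusted p = 5.9e-08). Much of CHAC1 came from cluster 5, a group of 88 cells described below. It stood at 367.7 CPM there and 29.5 CPM in the other low-mitochondrial cells, and 1 cell of library 4 held 14.2% of its UMIs.

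Targets of p53 were mostly higher. Of 30 genes of p53 response and cell death, 19 rose and 2 fell (median 0.31). CDKN1A, the cell cycle inhibitor p21, stood at 333, 443, 384 and 302.5 CPM in low-mitochondrial cells, against 180, 197, 155 and 162 CPM in comparison cells. The groups did not overlap (log2 fold change 1.09 ± 0.07, adjusted p = 5.7e-09). GADD45A, induced by DNA damage and by stress, stood at 181.5, 317, 240 and 217 CPM in low-mitochondrial cells, against 120, 119, 115 and 114 CPM in comparison cells. GDF15, a secreted stress cytokine, averaged 33.5 ± 11.7 CPM in low-mitochondrial cells and 14.2 ± 3.0 CPM in comparison cells, while BAX, a pore-forming death effector, did not pass at 187 ± 5 CPM in low-mitochondrial cells and 174 ± 5 CPM in comparison cells.

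Noncoding genes that host small nucleolar RNAs were higher as well. Such transcripts are unstable when translation runs normally, since they carry short reading frames that trigger decay. Of 15 listed, 11 rose and 2 fell (median 0.44). SNHG12 stood at 156, 232, 281 and 222 CPM in low-mitochondrial cells, against 66.9, 68.8, 66.9 and 62.6 CPM in comparison cells. There was no overlap (log2 fold change 1.74 ± 0.08, adjusted p = 7.57e-10), and much of SNHG12 came from a small cluster described below. ZFAS1 was more even, at 426, 450, 581 and 441 CPM in low-mitochondrial cells, against 286, 275, 307 and 288 CPM in comparison cells (log2 fold change 0.73). SNHG3 and SNHG14 fell, by 0.63 and 0.30 on the log2 scale.

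Nuclear genes for mitochondrial proteins showed little of the loss seen in the MT- transcripts. Of 70 nuclear-encoded subunits of oxidative phosphorylation, 19 rose and 13 fell (median 0.06), and together they took 2.81 ± 0.16% of UMIs in low-mitochondrial cells and 2.69 ± 0.05% in comparison cells. ATP5F1E, the epsilon subunit of ATP synthase, rose by 0.42 on the log2 scale and its beta subunit ATP5F1B fell by 0.44. Of 45 mitochondrial ribosomal proteins 3 rose and 6 fell, beside 13.7% higher and 16.4% lower over all genes. Of 22 genes that replicate or transcribe mitochondrial DNA or control its expression, 1 rose and 9 fell (median -0.18). POLRMT, the mitochondrial RNA polymerase, averaged 12.1 ± 2.7 CPM in low-mitochondrial cells and 17.1 ± 0.9 CPM in comparison cells (adjusted p = 0.000603). TFAM, which packages mitochondrial DNA, did not pass, at 174 ± 9 CPM in low-mitochondrial cells and 171 ± 7 CPM in comparison cells.

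Of 30 tested genes of mitophagy and autophagy, 14 rose and 3 fell (median 0.14), among them GABARAP, an autophagosome protein, at 440 ± 68 CPM in low-mitochondrial cells and 345 ± 47 CPM in comparison cells, and the mitophagy receptor OPTN, with a log2 fold change of 0.49. Of 20 glycolysis genes none rose and 12 fell (median -0.30). The lactate exporter SLC16A3 had the largest change, to 115 ± 18 CPM in low-mitochondrial cells, against 200 ± 17 CPM in comparison cells. GAPDH did not pass, at a log2 fold change of 0.17. Of 42 S phase genes 2 rose and 16 fell, and of 51 G2/M genes 4 rose and 12 fell. Over all genes 13.7% were higher and 16.4% lower, and among those of at least 20 CPM 16% and 26.8%.

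Cytosolic ribosomal protein genes split: of 78, 21 rose and 6 fell, with a median log2 fold change of 0.09. RPLP1 rose by 0.46 on the log2 scale. The direction of this list changed with the cells: among those with 1 SBO, 8 rose and 20 fell (median -0.02). Over all genes tested in cells with 1 SBO, 10.4% rose and 12% fell. The ribosomal share of all low-mitochondrial cells was highest in library 1, at 22.9%. Transcript length moved with the fold changes. Of 230 protein-coding genes averaging 20 CPM or more and transcripts under 1000 bases, 42.6% rose and 6.09% fell, and of 430 with transcripts of 8000 bases or more 10.0% rose and 32.8% fell, beside 16% and 26.8% of all 6038 genes at that level. Spearman's rho of length and log2 fold change was -0.21 over 5971 genes, which are not independent replicates. The part of length in the results on the lists was not tested.

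Cornified envelope genes were higher in the summed counts, but few cells carried them. SPRR2A, a small proline-rich precursor of the envelope, is one of the genes given as markers of these cells, together with SPRR1B of the same family and the squamous serpin SERPINB2, so their levels are given without a test. SPRR2A stood at 13.2, 1.29, 16.1 and 9.95 CPM in low-mitochondrial cells, against 1.10, 0.976, 1.84 and 1.99 CPM in comparison cells, with library 2 within the range of the comparison cells. SPRR1B averaged 20.1 ± 7.6 CPM in low-mitochondrial cells and 7.08 ± 1.77 CPM in comparison cells, and SERPINB2 94.4 ± 5.3 CPM in low-mitochondrial cells and 49.4 ± 5.2 CPM in comparison cells.

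Of the 411 SPRR2A UMIs, 190 (46.2%) came from 1 cell of library 1 and 87.1% from 10 cells, and 57 of the 1948 cells (2.93%) had any. SPRR1B had 852 UMIs, 31.0% of them in 1 cell, and SERPINB2 was the broadest of the markers, found in 644 cells (33.1%). With every cell thinned to 3000 UMIs, SPRR2A was found in 0.273, 0, 2.75 and 2.07% of low-mitochondrial cells, against 0.286, 0.320, 0.532 and 0.712% of comparison cells. In library 2 the count was 0 of 437 cells, with an exact upper bound of 0.841%. Unthinned, the shares were 1.76, 1.81, 5.56 and 5.45%, against 1.73, 1.91, 3.06 and 3.86%. Neither SPRR2A nor SPRR1B therefore marks most of these cells, and they are named here only by their low mitochondrial share.

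The list of cornified envelope genes held 34 symbols, of which 33 were detected and 20 passed the filter on low counts. Of those 20, 13 rose, none fell and 7 did not pass (median 1.00). The 13 include the markers SPRR2A and SPRR1B. Counts of this list, here and below, are therefore a description only. CRCT1, a cysteine-rich protein of the epidermal differentiation complex, stood at 27.1, 52.1, 25.7 and 37.6 CPM in low-mitochondrial cells, against 4.36, 4.08, 6.19 and 3.02 CPM in comparison cells. The groups did not overlap (log2 fold change 3.04 ± 0.18, adjusted p = 5.7e-09), and 10 cells held 51.2% of its UMIs. LCE1C, a late cornified envelope protein, had the highest fold change of the list, 4.47, but 947 of its 1349 UMIs lay in 1 cell of library 4. The 2 abundant members, the protease inhibitor CSTA and the plakin PPL, did not pass, with CSTA at 59.2 ± 13 CPM in low-mitochondrial cells and 61.1 ± 7.3 CPM in comparison cells. The whole list took 0.0265 ± 0.0042% of UMIs in low-mitochondrial cells and 0.0142 ± 0.0016% in comparison cells.

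**Figure D3:**
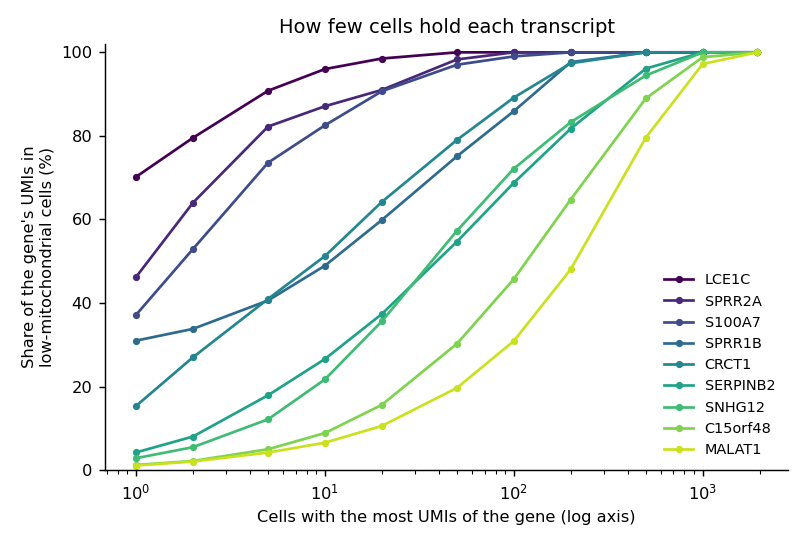
Cumulative share of a gene's UMIs in all low-mitochondrial cells (y axis, percent) held by the cells with the most UMIs of that gene (x axis, log axis). A single cell holds 70.2% of LCE1C, 46.2% of SPRR2A and 37.2% of S100A7, against 1.24% of C15orf48 and 1.1% of MALAT1.

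Genes of the wider squamous programme were mostly higher. Of 39 tested, 26 rose and 1 fell (median 0.53). Within SBO populations 10 of 29 rose and 1 fell (median 0.36), beside 15.8% higher and 13% lower over all genes there. Counts of this list, here and below, include the marker SERPINB2 and are a description only. S100A7, the antimicrobial protein psoriasin, averaged 80.9 ± 45.6 CPM in low-mitochondrial cells and 13.1 ± 8.6 CPM in comparison cells (log2 fold change 2.72, adjusted p = 9.63e-06), with 37.2% of its UMIs in 1 cell. Within SBO populations it lost its call (log2 fold change 1.26, adjusted p = 0.148) and was higher in 10 of 22 pairs, and among cells with 1 SBO its adjusted p was 0.0907. LCN2, the iron-scavenging lipocalin, stood at 200.5, 187, 333 and 305 CPM in low-mitochondrial cells, against 90.7, 92.3, 162 and 154.5 CPM in comparison cells, and was found in 52.1% of low-mitochondrial cells. The groups did not overlap (log2 fold change 1.07 ± 0.06, adjusted p = 2.83e-09). KRT10, a keratin of suprabasal cells, rose by 0.33 and the stress keratin KRT6A fell by 0.19, a call lost within SBO populations (-0.0102, adjusted p = 0.952).

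Outside the lists, IGFL1, a secreted protein of the IGF-like family, stood at 242, 187, 146 and 251 CPM in low-mitochondrial cells, against 40.7, 39.2, 53.3 and 44.9 CPM in comparison cells, the third highest fold change among genes of at least 20 CPM that changed the same way in all libraries (log2 2.23 ± 0.13, adjusted p = 4.97e-09). C15orf48, whose small mitochondrial protein can replace the complex IV subunit NDUFA4, stood at 620, 606.5, 547 and 444 CPM, against 231, 180.0, 228 and 192 CPM in comparison cells. It was detected in 64.5% of low-mitochondrial cells, and 10 cells held 8.86% of its UMIs (log2 fold change 1.44 ± 0.08, adjusted p = 2.75e-09). The replication-type histone genes HIST1H2BJ and HIST1H2AC, the chemokine CCL5 and the reductase DHRS2 were also among the 12 highest, with log2 fold changes of 1.35 to 1.67. HIST1H2AC stood at 524.5 CPM in cluster 5, described below, and at 40.2 CPM in the other low-mitochondrial cells, against 24.6 CPM in comparison cells. Within SBO populations CCL5 lost its call (0.19, adjusted p = 0.778) and was higher in 8 and lower in 14 of 22 pairs.

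Genes of the basal programme were mostly lower. Those of the mesenchymal programme were mostly lower over all cells, but not in libraries 3 and 4 alone or within SBO populations. Of 14 basal epithelial genes 9 fell and 1 rose (median -0.50). Within SBO populations 6 basal genes fell and none rose (median -0.18), beside 13% lower and 15.8% higher over all genes there. KRT5, the basal keratin, stood at 291, 431, 495 and 606 CPM in low-mitochondrial cells, against 738, 887.5, 924.5 and 1060 CPM in comparison cells, without overlap (log2 fold change -1.0 ± 0.07, adjusted p = 2.96e-08). In cells under 10000 UMIs KRT5 averaged 585 ± 281 CPM in low-mitochondrial cells and 591 ± 173 CPM in comparison cells. It did not pass there (log2 fold change -0.0983, edgeR adjusted p = 0.693), while of 13 basal genes tested 8 fell and 0 rose (median -0.82). The hemidesmosome integrin ITGB4 fell by 0.83 over all cells. Of 16 mesenchymal genes 10 fell and 2 rose (median -0.72), which rested on libraries 1 and 2: in libraries 3 and 4 alone 2 of 15 fell and 3 rose (median -0.16). BGN, a matrix proteoglycan, stood at 9.32, 9.27, 0.459 and 0.332 CPM in low-mitochondrial cells, against 38.5, 40.0, 0.492 and 0.775 CPM in comparison cells, and was not called in libraries 3 and 4 alone (adjusted p = 0.417). Without library as a block none rose and 2 fell. Within SBO populations 3 of 8 tested mesenchymal genes fell, 2 rose and the median was 0.04. VIM, the intermediate filament of mesenchymal cells, had log2 fold changes of -0.19 over all cells (adjusted p = 0.108) and 0.50 within populations (adjusted p = 0.0225).

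The lowest fold changes included genes of several kinds. ANPEP, a membrane aminopeptidase, stood at 20.6, 27.9, 20.7 and 23.3 CPM in low-mitochondrial cells, against 70.6, 81.6, 43.2 and 46.6 CPM in comparison cells (log2 fold change -1.36 ± 0.09, adjusted p = 2.33e-08). Within SBO populations it was lower in 22 of 22 pairs. AHNAK, a giant scaffold protein, was also lower in 22 of 22 pairs, with a log2 fold change of -0.86. The heparin-binding FGFBP1, the protease HTRA1, the YAP targets CCN1 and CCN2, the collagen crosslinker LOXL2, COL1A1 and MIR205HG had log2 fold changes of -1.36 to -0.84. Those of COL1A1 and LOXL2 differed between the pools, and COL1A1 was near 8 CPM in both groups of libraries 3 and 4. MTRNR2L12, with a log2 fold change of -2.30, is a nuclear copy of mitochondrial 16S ribosomal RNA. That RNA is not among the MT- genes counted here, and which copy its reads came from was not tested.

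Interferon-stimulated genes were all higher: 18 of 18 rose, with a median log2 fold change of 0.55. IRF7, a transcription factor of the interferon response, stood at 88.4, 113, 124 and 114 CPM in low-mitochondrial cells, against 54.5, 56.2, 54.7 and 56.8 CPM in comparison cells. There was no overlap (log2 fold change 0.99 ± 0.06, adjusted p = 8.05e-09). ISG15, a ubiquitin-like modifier, averaged 478 ± 63 CPM in low-mitochondrial cells and 304 ± 11 CPM in comparison cells. Within SBO populations 8 of the 18 rose (median 0.33), beside 15.8% of all genes there.

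The summed counts are mostly those of deep cells. In cells of at least 10000 UMIs in both groups, chosen after the results were seen, 2187 genes rose (13.3%) and 2575 fell (15.6%), none of the calls over all cells had the opposite sign, and 13 of 20 cornified, 26 of 39 squamous and 18 of 18 interferon genes rose. In cells under 10000 UMIs, 88 genes rose (1.32% of 6683 tested) and 635 fell (9.5%). Of 2780 genes called over all cells, 997 had the opposite sign there (35.9%), whether or not they passed. Of the 723 genes called in these shallow cells, 472 were also called over all cells, and 413 of those kept their sign. There, 0 of 24 squamous genes rose and 10 fell (median -0.67), and 0 of 17 interferon genes rose (median -0.06). None of 20 p53 genes passed in either direction (median 0.02). G2/M genes turned, with 9 higher and 3 lower (median 0.20), and the medians of S phase (0.18, none passed), glycolysis (0.09, 1 lower) and mitochondrial DNA expression genes (0.12, none passed) turned as well.

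Among these shallow cells LCN2 averaged 148 ± 119 CPM in low-mitochondrial cells and 390 ± 219 CPM in comparison cells, and SERPINB2 61.5 ± 20.3 CPM and 152 ± 85 CPM. SPRR2A averaged 2.49 ± 1.80 CPM in low-mitochondrial cells and 16.3 ± 20.6 CPM in comparison cells, on 9 and 32 UMIs, and failed the filter on low counts. Its values in libraries 1 to 4 were 1.56, 1.27, 5.15 and 1.97 CPM, against 0.754, 2.03, 45.1 and 17.4 CPM, so library 1 went the other way. MALAT1 was lower at both depths, at 876 ± 336 CPM in shallow low-mitochondrial cells and 2675 ± 529 CPM in shallow comparison cells, and at 1327 ± 440 CPM in deep low-mitochondrial cells and 2094 ± 498 CPM in deep comparison cells. DHRS2, an oxidoreductase, was higher at both depths, with a log2 fold change of 1.36 in shallow cells (adjusted p = 0.000937).

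**Figure D4:**
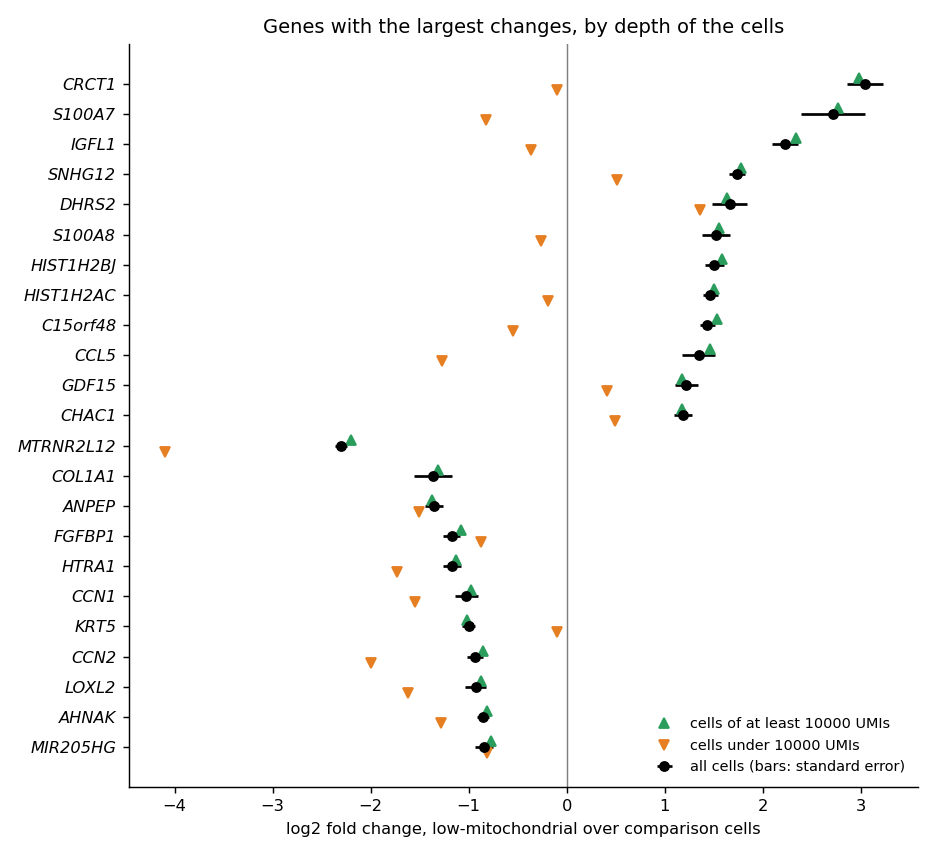
Log2 fold changes of low-mitochondrial over comparison cells (x axis) for the 12 genes with the highest and 11 of the 12 with the lowest changes (rows), over all cells (black, bars are standard errors), cells of at least 10000 UMIs (green) and cells under 10000 UMIs (orange, missing where a gene failed the filter on low counts). Deep cells give nearly the values of all cells, whereas shallow cells give -0.09 for CRCT1 and -0.82 for S100A7.

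**Figure D5:**
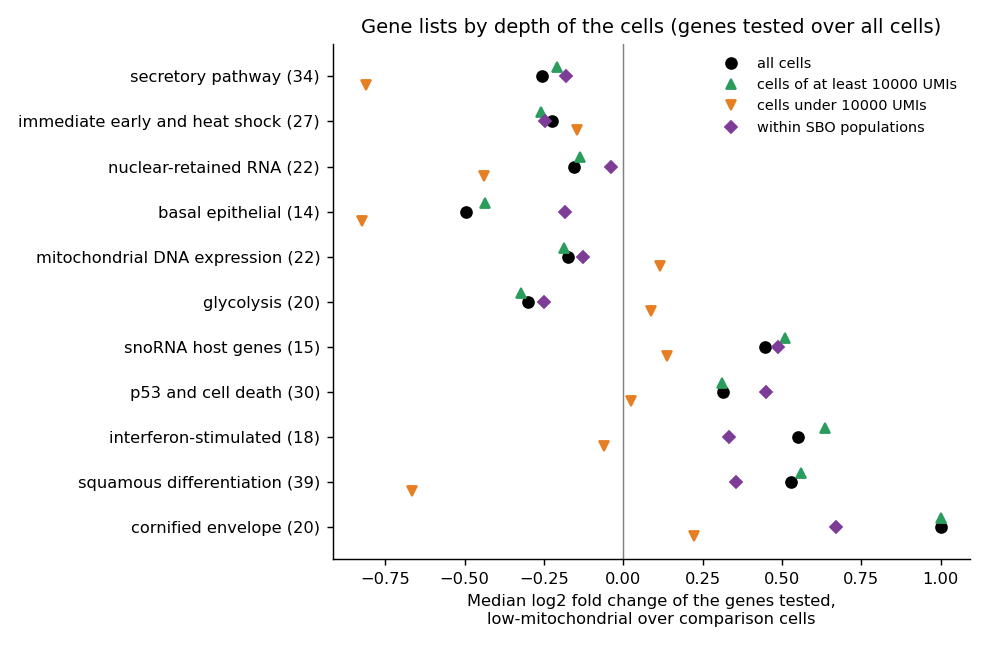
Median log2 fold change of low-mitochondrial over comparison cells (x axis) over the tested genes of each list (rows, number tested in brackets), over all cells (black), deep cells (green), shallow cells (orange) and within SBO populations (purple). The secretory pathway is lower in each, at -0.81 in shallow cells, while squamous differentiation stands at 0.53 over all cells and -0.67 in shallow cells.

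Clustering by expression divided the low-mitochondrial cells into 6 groups, described by their leading genes since no name was supported by 3 markers of 1 cell type except in the second. Cluster 1 (676 cells, 34.7%) was led by MMP9, a secreted gelatinase, and KRT13, a mucosal keratin, with a median of 30275 UMIs. Cluster 2 (535 cells, 27.5%) was squamous-like, led by S100A8, CRCT1 and CDKN1A, with S100A9 and LCN2 also among its 10 leading genes. It held 340 cells of library 1, and 62.1% of its cells had several SBOs, and the part of doublets in its profile was not tested. S100A7 stood at 271 CPM in it and at most 16.7 CPM in each other cluster.

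Cluster 3 (396 cells, 20.3%) was led by LIN7A, KCNMA1 and CNRIP1, with VIM at 2803 CPM, against 244.5 CPM in the other low-mitochondrial cells. It was shallow, with a median of 8251.5 UMIs and a mitochondrial share of 0.0364%. Libraries 1 and 2 gave 174 and 207 of its cells and libraries 3 and 4 gave 6 and 9, and 64.6% had no SBO. Cluster 4 (235 cells, 12.1%) was led by KRT5 at 1182 CPM, with a median of 9080 UMIs, MALAT1 at 197 CPM, HSPA5 at 78.5 CPM and no SBO in 71.5%. Its cells came from all libraries, 46, 58, 46 and 85 of them. Clusters 3 and 4 thus both hold shallow cells and differ in VIM and KRT5.

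Cluster 5 (88 cells, 4.52%) was led by ASNS, the asparagine synthetase induced by amino acid shortage, NR1D1 and SNHG12, which stood at 1991 CPM in it and at 87.5 to 148 CPM in the other clusters. CHAC1 and the transcription factor KLF10 were also among its 10 leading genes. It came from all libraries, with 23, 21, 20 and 24 cells. Cluster 6 held 18 cells, 16 of them from library 1, led by IGFL3. At a higher resolution the cells divided into 12 clusters.

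Globins and most leukocyte genes were at or near 0. Of 13 erythroid and platelet genes, 1 was tested and did not pass, and the list summed to between 6.43e-05 and 9.19e-05% of UMIs in the 4 low-mitochondrial sums, against 7.47e-05 to 0.000104% in the comparison sums. HBB, a globin, had 0 UMIs in low-mitochondrial cells. Of 9 leukocyte genes 3 were tested, of which CD14, a monocyte receptor, fell by 0.58 on the log2 scale and none rose, and PTPRC, the pan-leukocyte CD45, had 1 UMI. The leukocyte list summed to 0.00158 to 0.00292% of UMIs in low-mitochondrial cells and 0.00163 to 0.00276% in comparison cells, most of it CD68, a lysosomal protein at 18.1 CPM in both. Of 7 endothelial genes 2 were tested and did not pass, and of 8 stromal fibroblast genes 5 were tested and 4 fell. Of these THY1, a surface glycoprotein of fibroblasts and other cells, averaged 57.9 ± 12 CPM in low-mitochondrial cells and 91.1 ± 46 CPM in comparison cells. Of 12 luminal epithelial genes 5 rose and none fell (median 0.11). Within SBO populations 1 rose and 2 fell (median -0.0807), beside 15.8% higher and 13% lower over all genes there. At a mitochondrial share under 0.25%, 1 rose and 3 fell (median -0.17). The labelled epithelial origin was visible in KRT18, a simple keratin, at 5140 ± 708 CPM in low-mitochondrial cells and 4021 ± 830 CPM in comparison cells, though its call was lost within SBO populations (adjusted p = 0.275).

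Over all genes, 2275 rose and 2715 fell in low-mitochondrial cells, and 4597 of these 4990 moved the same way in all 4 libraries. Changes of at least 0.5 on the log2 scale numbered 1058 higher and 527 lower. Without library as a block, 1238 rose and 1174 fell. With comparison cells matched in depth as far as possible, 1388 rose and 1445 fell, and 3 of 4584 calls had the opposite sign. The match was incomplete, since 815 low-mitochondrial cells but 443 comparison cells held under 10000 UMIs. In library 2 the matched comparison cells held 9893915 UMIs, against 8522033 in low-mitochondrial cells. This setting therefore does not stand for shallow cells. The low-mitochondrial sums held 15563789, 8522033, 6530656 and 9043839 UMIs in libraries 1 to 4, and those of comparison cells 116394852, 99375769, 122016483 and 109735935.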

How the data were processed

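The authors deposited 1 matrix of UMI counts per library. Cell Ranger 6.0.2, bcl2fastq 2.20.0.422, Seurat 4.1.0 and build hg38 are named in the submitters' processing notes. Filters before deposit and strand use in counting were not given in the sources used here, so antisense genes and genes with near-identical copies (SPRR2, S100A, HIST1 and ribosomal protein genes) are uncertain. Raw counts without MT- genes were summed per library and group of cells (4 libraries each) and tested with edgeR 4.0.16 (filterByExpr, TMM, quasi-likelihood, library as a block because both groups come from the same libraries, Benjamini-Hochberg adjusted p under 0.05). The common biological coefficient of variation was 6.38%. Single values were tested by exact two-sided sign-flip permutation over libraries. SBOs were called with HTODemux (Seurat 5.3.0, quantile 0.99) in each library; cells with several were kept and no other doublet caller was run. Cells were clustered with scanpy 1.11.5 (2000 variable genes, 30 principal components, 20 neighbours, Leiden resolution 0.5). For detection shares each cell was thinned to 3000 UMIs, leaving out shallower cells (234 low-mitochondrial and 115 comparison cells). In 1 simulation of 16502 genes, 98% of changes of 0.5 and 100% of changes of 1 on the log2 scale were recovered, with 10 of 16302 unchanged genes called. It gave every gene the same variation, close to the 6.38% above, and changed no genes of very low level. Genes whose UMIs lie in few cells vary more, so these rates do not describe them.

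Named genes were the 12 highest and 12 lowest of at least 20 CPM with the same sign in 4 libraries (clone-named and LINC symbols left out), the markers, and the 3 members of each list with the highest level and the 3 with the largest change. Other genes named to complete a count or a cluster were chosen after their values were seen. Of these, 1 of the 12 lowest is not reported here. The members, lists and tests were chosen with earlier results of these data known. Alternatives covered DESeq2 1.42.0, other normalisation, filters and limits on the mitochondrial share, depth matching, SBO populations, and leaving out each library.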

Additional observations from a re-analysis of the deposited data

Results flagged for a closer look

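Among 70 sets of 4 library values, 2 held a value far from the others, and chance alone flags about 1 in 20. The median SBO count of low-mitochondrial cells was 591 in library 1 and 179 to 219.5 in the others, a gap of 0.902 of the range, above Dixon's 95% critical value. DHRS2 stood at 75.2 CPM in low-mitochondrial cells of library 4 and at 35.3 to 41.6 CPM in the others, a gap of 0.842 of the range, and 1 cell of library 4 held 21.0% of its UMIs.

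The change between low-mitochondrial and comparison cells itself differed between the pools for 32 of 16589 genes (0.193%, edgeR interaction, 1205 at an unadjusted p under 0.05). COL1A1, the main fibrillar collagen chain, stood at 17.2 and 24.4 CPM in low-mitochondrial cells of libraries 1 and 2, against 68.9 and 79.0 CPM in their comparison cells, and at 7.35 and 7.19 CPM in low-mitochondrial cells of libraries 3 and 4, against 8.28 and 7.83 CPM. The difference of the log2 fold changes, libraries 3 and 4 minus libraries 1 and 2, was 1.64 (edgeR adjusted p = 0.000162). LOXL2 stood at 34.4 and 38.8 CPM in low-mitochondrial cells of libraries 1 and 2, against 85.7 and 97.1 CPM, and at 25.4 and 29.7 CPM in libraries 3 and 4, against 38.9 and 39.1 CPM, a difference of 0.748 (edgeR adjusted p = 0.0159). The SBO makeup of the 2 groups within each pool was not tested for its part in these values.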

How the results depend on the processing

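Over 4990 genes called, leaving out 1 library gave 3582 to 4356. The count was 2412 without library as a block (the replicate block) and 2567 with equal weight per cell. With comparison cells matched in depth as far as possible it was 2833. It was 2933 in libraries 1 and 2 alone, 3289 in libraries 3 and 4 alone and 2969 within SBO populations. In cells under 10000 UMIs, a setting added after the data were seen, it was 723, and 6683 genes could be tested. A turn below is a change of sign, whether or not the gene passed in shallow cells. There, LCN2 passed (edgeR adjusted p = 5.86e-05) and CRCT1 did not (edgeR adjusted p = 0.944). Of 76 named genes tested in these shallow cells, 17 log2 fold changes turned: CRCT1 (-0.0946), S100A7 (-0.82), IGFL1 (-0.36), S100A8 (-0.27), HIST1H2AC (-0.19), C15orf48 (-0.54), CCL5 (-1.27), LCN2 (-1.51), PVT1 (-0.38), EPB41L4A-AS1 (-0.39), SNHG15 (-0.0426), ATP5F1B (0.24), PPRC1 (0.17), MAP1LC3A (-0.14), HSP90AA1 (0.0622), IRF7 (-0.12), FN1 (-1.31). Of other list members SERPINB2 (-1.13), IFI6 (-0.91), KLK5 (-0.51), GPI (0.20), PHB2, PFKM, NASP, TUBB4B, KRT81 and RSAD2 turned too. FN1, 0.26 over all cells, was also -0.10 at a share under 0.25%, -0.036 at equal weight and -0.0276 within populations, and VIM was 0.50 within populations; the causes were not tested. Of 82 named genes, between 74 and 82 kept sign and side of the threshold under the other alternatives, except within populations (70 of 80).

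Under 0.25% the cornified share exceeded that of comparison cells by 0.0206 percentage points. Assigning cells by their top SBO gave low-mitochondrial shares of 1.603% for SBO01 and 3.09% for SBO05. Resolution 1.0 gave 12 clusters. The split of higher and lower calls, 45.6% higher, was 47.9% with relative log expression factors, 40.3% with total UMIs only and 55.0% within populations. Without library as a block the lists gave fewer calls: ribosomal 3 higher and 1 lower, oxidative phosphorylation 2 and 7, mitophagy 8 and 0, glycolysis 0 and 7, p53 12 and 1, immediate early 2 and 10, squamous 16 and 0. Depth limits shallow cells most: their sums held 508706 to 1924021 UMIs in low-mitochondrial cells and 345576 to 1326934 in comparison cells.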
